A study of Mus musculus with 8 samples.

Results

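The variable and joining segments of the mouse T cell receptor alpha chain were described by DNA methylation and read depth in T cells and B cells. The segments were all genes of the GENCODE M21 annotation (GRCm38) on chromosome 14 whose symbol begins with Trav (variable) or Traj (joining), whatever their biotype, each taken as its body with 500 bp to each side. There were 188 such segments among 51229 autosomal genes, 128 Trav and 60 Traj. Of the Trav, 108 were annotated as functional and 20 as pseudogenes. Of the Traj, 51 were functional and 9 were pseudogenes. All lie on the plus strand, and the stretch from the first base of Trav1 to the last base of Trac, the constant region gene, covers chr14:52427928-54224206, or 1796 kb.

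Whole-genome bisulfite sequencing, which reads methylated cytosines as C and unmethylated ones as T, had been applied to 8 samples in 4 groups of 2. The groups were B cells and T cells of females and of males, all from spleens of C57BL/6J mice aged 6 to 8 weeks. B cells were CD43- resting cells, and T cells were CD4+CD62L+ naive cells, bead-depleted of other lineages, including TCRγ/δ+ cells, and then sorted as CD62Lhi, CD44lo and CD25-. Each sample pooled cells of several mice, and each group had 1 deposited table, so each value below is 1 measurement of its group and comparisons of T with B cells rest on 2 tables of each cell type.

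The alpha chain gene is assembled in the developing thymocyte. RAG enzymes join 1 V segment to 1 J segment, and the DNA that lay between them is cut out of the chromosome as a circle. The joined segment is then spliced to Trac. Joining on 1 chromosome can occur repeatedly, each time with a V segment farther upstream and a J segment farther downstream. The genes of the T cell receptor delta chain lie among the last V segments and between these and the J segments, so alpha joining removes most or all of them. B cells rearrange immunoglobulin genes instead.

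RAG recognises a recombination signal beside each segment, a heptamer and a nonamer held apart by a spacer. The stretches where the signal is looked for are shown for 6 segments that mark the ends of the locus and the extremes of read depth found below. They were read from the GRCm38.p6 genome of RefSeq on the plus strand, with heptamer and nonamer in capitals and the 23-base (V) or 12-base (J) spacer in lower case. Trav1 is the functional V segment farthest from Trac and Trav23 the nearest. Trav13d-1 had the largest fitted T over B depth among the Trav segments. Traj61 is the J segment farthest from Trac, Traj7 the one with the largest depth ratio and Traj2 the nearest functional one.
Trav1 (chr14:52428877-52428915): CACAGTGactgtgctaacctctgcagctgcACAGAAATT
Trav13d-1 (chr14:52851867-52851905): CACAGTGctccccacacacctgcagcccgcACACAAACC
Trav23 (chr14:53977679-53977717): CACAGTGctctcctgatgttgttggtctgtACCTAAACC
Traj61 (chr14:54154977-54155004): GGTTTTTGTaaaggtgctcacTTCTGTG
Traj7 (chr14:54211442-54211469): CGTTTTTGTgaagcacttactCAGAGTG
Traj2 (chr14:54217808-54217835): GGCTTCTGTaaaggtgtcaccTGCAGTG
The consensus heptamer of the V flanks, CACAGTG, stood at the expected place in 91 of 108 functional and 8 of 20 pseudogene Trav segments. At any place on either strand, 6.81% of 32851 RefSeq promoters of 300 bases hold these letters, a looser match than at the expected place. Each consensus was taken from the functional flanks of its class, which favours these over pseudogenes. The J flanks varied more, and the stretch beside Traj59, the farthest functional J segment, matched only 2 of 7 heptamer and 2 of 9 nonamer bases of the consensus and is not shown. The consensus J heptamer, CACTGTG, the reverse complement of the V heptamer, was exact in 15 of 51 functional and 0 of 9 pseudogene Traj segments. The V nonamer ACACAAACC was exact in 13 functional Trav segments, and the J nonamer GGTTTTTGT in 2 functional Traj segments.

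The tables held 93.2% to 94.6% of the reference autosomal CpGs, at a median of 14 to 17 reads per CpG, and listed only CpGs with 5 or more reads. The cell type labels were checked against CpGs within 1 kb of the start of marker genes. At 8 of 8 B cell genes methylation was at least 20 points higher in T cells, and at 7 of 9 T cell genes it was at least 20 points lower, with Lat and Cd28 the exceptions. Of 6 genes of other spleen cells, Cd8a was lower in T cells by more than 20 points and the other 5 differed by less.

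Coverage of the segments was uneven. The V region contains a near-identical repeated stretch, whose segments carry a d (39 segments) or n (34 segments) in their name beside the copies with no letter. Of the reference CpGs in d and n copies, 45.4% were listed in at least 1 table, against 94.5% in Trav segments with no letter and 100% in Traj segments. There were 27 segments with no listed CpG and 36 with fewer than 3, of which 33 were d or n copies. Reads that map to more than 1 copy may have been lost or placed in the wrong copy, so values of d and n copies, and of the segments they duplicate, are uncertain.

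Read depth was expressed as the mean reads per CpG divided by the autosomal median of the same table, so that 1 is the depth of a typical autosomal CpG. A CpG listed in 1 table and missing from another was counted there as 0 reads. Of all autosomal genes, 0.467% were called different in depth between T and B cells (limma, adjusted p under 0.05 and at least 1.5-fold), 0.234% lower in T cells. Of 92 Trav segments with 3 or more CpGs, 29 were called lower in T cells and 0 higher. Of 60 Traj segments, 14 were called lower and 0 higher. The median log2 of T over B depth was -0.58 for Trav and -0.60 for Traj, against 0.02 over all autosomal genes tested. The Trav median was -1.11 over segments with no letter and -0.20 over d and n copies. The 43 segments made up 36.4% of the 118 autosomal genes called lower in T cells, and 18 more of the 118 were other genes of the locus.

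**Figure D1:**
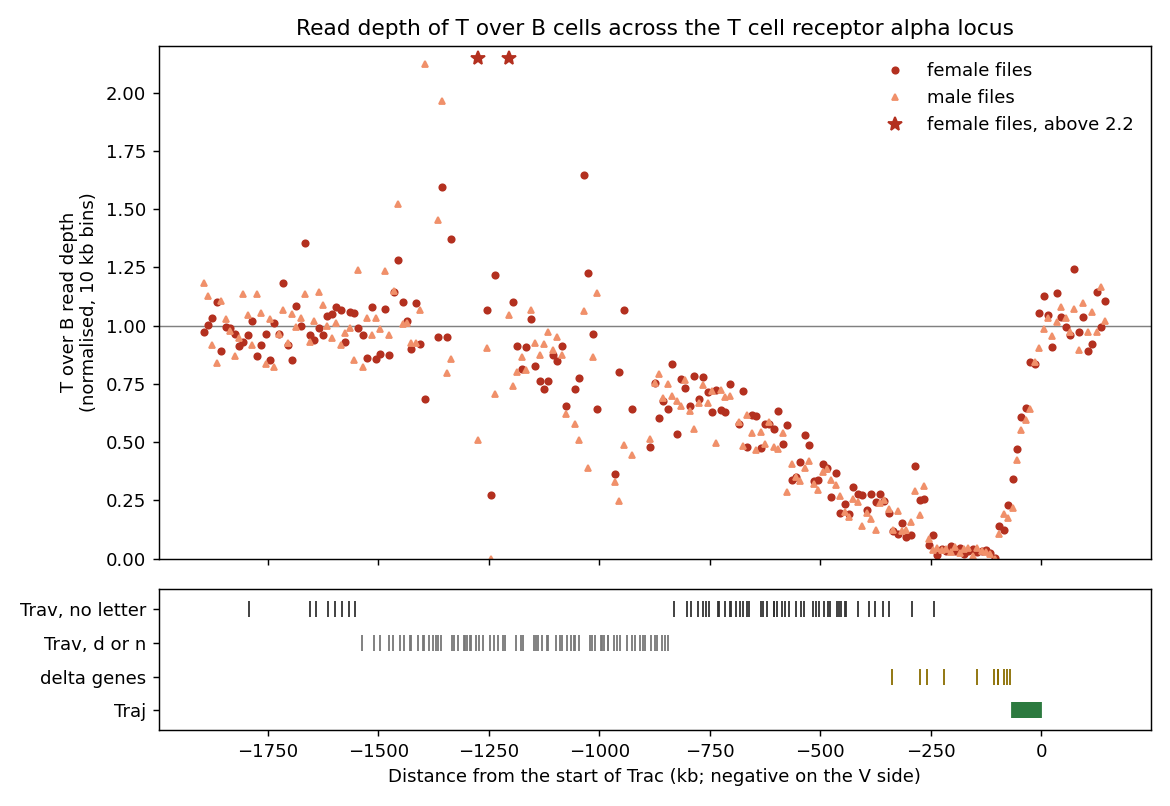
Normalised T over B read depth in 10 kb bins with 10 or more CpGs (y axis, 186 of 205 bins) against distance from the start of Trac in kb (x axis), for the female (circles) and male (triangles) tables, with the place of each segment below. Depth falls along the V segments with no letter, is below 0.1 in 15 bins between 260 kb and 100 kb upstream, with unlisted CpGs counted as 0, and returns to about 1 along the J segments. Stars at the top mark 2 bins among the d and n copies whose female ratio lies above 2.2.

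Depth in T cells changed with place in the locus, in the plot of 10 kb bins, rather than equally over it. In the 24 bins outside the locus, T over B depth lay between 0.838 and 1.24 in both sexes. Between 260 kb and 100 kb upstream of Trac, 15 bins were below 0.1 in both sexes. The lowest bin, 110 to 100 kb upstream with 87 CpGs, had a ratio of 0.00319 in females and 0 in males, or 0.221 and 0.240 if every unlisted CpG is given the 4 reads it may at most have had.

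The 8 V segments at the far end of the locus (Trav1 to Trav6-2) kept the depth of B cells. Their T over B depth, over their CpGs together, was 0.977 in females and 0.891 in males, and 0 of 8 were called. Trav1 (chr14:52427928-52428876), 1793 kb from Trac, had a depth of 0.960 (B) and 0.810 (T) in females and 0.959 and 0.760 in males. Both T values lay below both B values, but the log2 difference of -0.27 ± 0.14 (SE) was not called (limma adjusted p = 0.707).

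The 39 d copies had T over B depths of 0.867 in females and 0.923 in males, and the 34 n copies 0.745 and 0.756. Of 40 d and n copies with enough CpGs, 2 were called lower, Trav9d-3 and Trav13n-3. Trav9d-3 rested on 3 CpGs, none of which was listed in either T cell table, with depths of only 0.119 and 0.333 in female and male B cells. With unlisted CpGs at 4 reads its ratios were 0.76 and 0.75. The highest Trav ratios were also found here on few CpGs. Trav13d-1, with 7 CpGs, had depths of 0.612 (B) and 0.412 (T) in females and 0.210 and 0.562 in males, and the sexes went opposite ways. It was not called with all 4 tables (limma adjusted p = 0.872). Its log2 value was 1.04 without female B and -0.32 without male B cells. Trav12d-3, at the quartile of the order, had no listed CpG.

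Along the 38 segments from Trav7-2 to Trav15-3, which carry no letter, T over B depth fell to 0.501 in females and 0.439 in males, and 18 of 35 tested were called lower. Trav13-1, 676 kb from Trac, had depths of 1.15 and 0.949 in B cells of females and males and of 0.855 and 0.543 in T cells (log2 -0.58 ± 0.17, adjusted p = 0.341). Its log2 value was -0.28 without male T, -0.89 without female T and -0.72 without male B cells. Trav16, 477 kb from Trac, had depths of 0.732 and 0.783 in B cells and 0.260 and 0.167 in T cells (log2 -1.64 ± 0.19, adjusted p = 0.00277). The T and B tables did not overlap for either segment, and over all 4 tables only Trav16 was called. How many of all genes show no such overlap was not counted.

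All 9 segments nearest to the J region, Trav3-4 to Trav23, were called lower in depth. Together they had a T over B depth of 0.257 in females and 0.155 in males, or 0.341 and 0.292 with every unlisted CpG at 4 reads. Trav21-dv12 (chr14:53875984-53876752), the V segment with most CpGs (28), whose name marks a V segment also used in delta chains, had depths of 1.19 (B) and 0.3004 (T) in females and 1.49 and 0.355 in males, with a log2 difference of -1.88 ± 0.12 (limma adjusted p = 6.46e-05). Trav22, a pseudogene, had depths of 1.01, 0.104, 0.933 and 0.0337 in the same order (log2 -3.17 ± 0.20, adjusted p = 4.43e-05). In both segments the T cell tables lay far below the B cell tables.

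Trav23 (chr14:53977153-53977678), the V segment nearest to Trac at 243 kb, had the lowest fitted log2 difference of all members. In B cells its 24 CpGs had a depth of 0.818 in females and 0.956 in males. In female T cells the depth was 0.0882, and in male T cells none of the CpGs was listed. Its log2 difference of -3.49 ± 0.30 (adjusted p = 0.000315) depends on the added constant of 0.05, since 1 table is at 0. With unlisted CpGs at 4 reads its ratios were 0.323 and 0.262, and those of Trav22 0.282 and 0.283. Trav19, a functional V segment 375 kb from Trac, had T over B depths of 0.208 in females and 0.0196 in males, or 0.313 and 0.229 with unlisted CpGs at 4 reads. Trav12-4, a pseudogene with 4 CpGs, had 0.298 in females and none of its CpGs was listed in male T cells. With unlisted CpGs at 4 reads its ratios were 0.355 and 0.174. The call of Trav12-4 (adjusted p = 0.0459) was lost with scaling to the autosomal mean (limma adjusted p = 0.135), with a constant of 0.01 (0.191) and with a minimum of 1 CpG per gene (0.0624).

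Over the 52 Trav segments with no letter and enough CpGs, Spearman's rho between T over B depth and distance from Trac was 0.839 in females and 0.854 in males. This is a description across segments that share the same libraries, not a test. Of the 11 delta genes, 3 lie before Trav23 and 8 between Trav23 and Traj61, and all 11 were called lower, with a median log2 of -2.74. Their T over B depths were at most 0.294 in females and 0.191 in males, and lay between 0.192 and 0.366 with unlisted CpGs at 4 reads. Trdd2, a diversity segment of the delta chain, had depths of 1.22 and 1.30 in B cells and none of its 16 CpGs was listed in either T cell table. TCRγ/δ+ cells had been depleted from the T cells.

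Across the 60 Traj segments, depth in T cells rose toward Trac. In groups of 10 in chromosomal order, T over B depth was 0.405 in females and 0.278 in males for Traj61 to Traj52, 0.538 and 0.4995 for Traj51 to Traj42, and 0.598 and 0.518 for Traj41 to Traj32. For Traj31 to Traj22 it was 0.725 and 0.657, for Traj21 to Traj12 0.822 and 0.789, and for Traj11 to Traj1 0.958 and 0.920. The order was the same in both sexes. All 10 of the first group were called lower, 2 each of the next pair of groups, and 0 of the last 30. Spearman's rho between the ratio and distance from Trac was -0.785 in females and -0.831 in males over 60 segments, of which 35 neighbouring pairs share bases through their flanks and so are not independent.

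Traj61 (chr14:54155005-54155076), a pseudogene 65.5 kb from Trac, was the lowest J segment. Its 10 CpGs had depths of 1.15 and 1.17 in B cells of females and males and 0.271 and 0.106 in T cells (log2 -2.43 ± 0.24, adjusted p = 0.00101). Only 30% of them were listed in male T cells, and with unlisted CpGs at 4 reads its ratios moved from 0.235 and 0.0911 to 0.297 and 0.241. Traj59, the farthest functional J segment, had 1.09 and 1.21 in B cells and 0.294 and 0.350 in T cells (log2 -1.69 ± 0.18, adjusted p = 0.00128). Both were far apart between cell types. At Traj22, 23.3 kb from Trac, the B values of 0.704 and 0.819 lay above the T values of 0.664 and 0.562, by little in females (ratio 0.943) and more in males (0.687), and the difference was not called (adjusted p = 0.820).

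Traj7 (chr14:54211470-54211528) had the largest J ratio, 1.17 in both sexes, with depths of 0.929 and 1.13 in B cells of females and males and 1.08 and 1.32 in T cells (log2 0.22 ± 0.13, adjusted p = 0.769). The cell types overlapped. Trac itself, with 69 CpGs, had depths of 1.11 and 1.14 in B cells and 1.06 and 0.966 in T cells, a log2 difference of -0.14 ± 0.10 (adjusted p = 0.807). Dad1, the gene beyond Trac, which encodes a subunit of the oligosaccharyltransferase, had ratios of 0.992 and 0.973. Depth thus differed at the far J segments and not detectably at Trac and Dad1. With unlisted CpGs as 0 reads, 24 Trav and 9 Traj segments had ratios below 0.5 in both sexes, and with unlisted CpGs at 4 reads 17 and 9 had. How many of all genes had such ratios was not counted. Copy number was not measured.

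**Figure D2:**
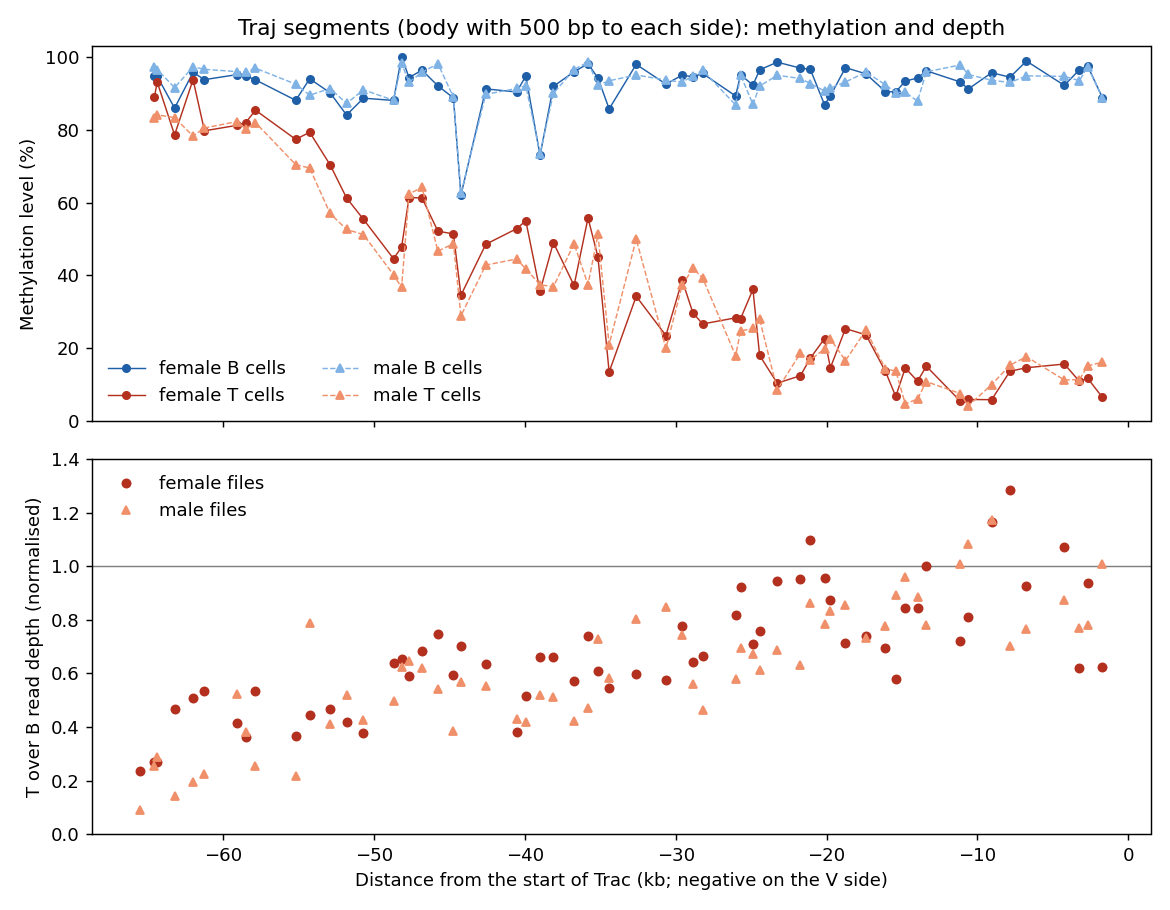
Methylation level in percent (upper panel) and normalised T over B read depth (lower panel) of the Traj segments against distance from the start of Trac in kb. Upper panel lines are the 4 tables, 1 per group, for the 59 segments with 3 or more CpGs in all 4; lower panel points are the ratio in each sex for all 60. B cell levels are high at most segments and lower at Traj41 and Traj37, whereas T cell levels fall and depth rises toward Trac.

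Methylation was the share of methylated reads over the CpGs of a segment that were listed in all 4 tables. Of autosomal genes tested, 1.18% were called different between T and B cells (quasi-binomial test, adjusted p under 0.05 and at least 20 points), 0.749% lower and 0.428% higher in T cells. Of 59 Traj segments with 3 or more such CpGs, 49 were called lower in T cells and 0 higher. Of 75 Trav segments, 18 were called lower and 1 higher. The median T minus B difference was -56.8 points for Traj and -11.6 points for Trav, against -0.27 over all genes tested. At a minimum of 10 reads per CpG the Trav median was -4.43 points and that of Traj -70.2. The requirement of 5 reads in all 4 tables leaves out the segments with the lowest depth in T cells, such as Trav19, Trav22 and Trav23. In all, 54 of 188 segments could not be tested, and 36 of these had fewer than 3 CpGs listed in any table.

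The J segments were methylated in B cells, and in T cells their level was lower the nearer a group of segments lay to Trac. The median level over the 59 segments was 94.2% in female B and 93.1% in male B cells, and 34.6% in female T and 36.9% in male T cells. All 59 were lower in T cells in both sexes, a count not made over all genes. In groups of 10, the T cell level was 82.4% in females and 80.04% in males for Traj61 to Traj52, 60.4% and 55.4% for Traj51 to Traj42, and 41.8% and 37.7% for Traj41 to Traj32. It was 28.6% and 31.6% for Traj31 to Traj22, 15.7% and 16.0% for Traj21 to Traj12, and 10.8% and 12.01% for Traj11 to Traj1. B cell levels of the same groups lay between 82.8% and 95.2% with no such order.

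The 10 tested Traj segments that were not called were the farthest ones, Traj60 to Traj51. Traj59 had 94.6% (B) and 93.0% (T) in females and 96.5% and 84.1% in males, a difference of -7.00 points (adjusted p = 0.370). Traj55, a pseudogene with 23 CpGs, had 95.1%, 81.2%, 95.9% and 82.3% in the same order. Its difference of -13.8 points had an adjusted p of 0.00154 in the quasi-binomial test and was not called because it was under 20 points. As a group, the far J segments thus differed least in methylation and most in depth. For Traj61 to Traj52, 68 of 109 CpGs were listed in all 4 tables, against 115 of 120 for Traj11 to Traj1. Traj61, not tested, differed by -20.9 points in females and -41.8 in males on 2 CpGs.

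From Traj50 on, every tested segment was called, with differences from -27.0 to -88.9 points and adjusted p-values from 2.75e-06 to 0.0150 (quasi-binomial test). Traj50 had 90.2% (B) and 70.4% (T) in females and 91.3% and 57.1% in males. Traj46 had 100%, 47.8%, 98.2% and 36.7% in the same order. Traj41 and Traj37 were the only ones clearly less methylated in B cells than the rest, at 62.0% and 62.5% (Traj41) and 73.0% and 73.4% (Traj37) in females and males.

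Traj18 (chr14:54200777-54200842) is the J segment of the invariant receptor of natural killer T cells, and was named here for that role after its values were seen. It had 89.3% (B) and 14.7% (T) in females and 91.5% and 22.6% in males, a difference of -71.7 points (adjusted p = 1.41e-05). Its depth ratios were 0.873 and 0.833, between those of Traj17 and Traj19 on either side.

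The largest differences were in the J segments within 24 kb of Trac. Traj9 had 93.1% (B) and 5.51% (T) in females and 97.8% and 7.59% in males, the widest difference of all members at -88.9 points (adjusted p = 6.52e-06). Traj7 had 95.7%, 5.91% (95% Wilson interval 4.03 to 8.58), 93.6% and 10.1% (7.69 to 13.1) in the same order, on 299 to 487 reads. Traj2, the nearest functional J segment, had 97.5%, 11.8%, 97.3% and 15.2%. Such intervals cover counting error only. Trac had 85.3% and 82.6% in B cells and 18.9% and 22.5% in T cells (adjusted p = 3.38e-06), so the low level in T cells went on into the constant gene. At Dad1 the difference was -9.50 points, lower in T cells in both sexes (adjusted p = 0.0104), and was not called because it was under 20 points.

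The sequence around Traj7 and that around Traj55 are shown to contrast a J region near Trac with one at the far end. Traj7 has most CpGs of the 5 segments with the largest lower methylation, so it was chosen on these values. Traj55 has most CpGs of the 10 J segments farthest from Trac. Each is the 300 bases with most CpGs in the segment with its flanks, on the plus strand of GRCm38.p6 from RefSeq, with CpGs in capitals.
Traj7 (chr14:54210973-54211272): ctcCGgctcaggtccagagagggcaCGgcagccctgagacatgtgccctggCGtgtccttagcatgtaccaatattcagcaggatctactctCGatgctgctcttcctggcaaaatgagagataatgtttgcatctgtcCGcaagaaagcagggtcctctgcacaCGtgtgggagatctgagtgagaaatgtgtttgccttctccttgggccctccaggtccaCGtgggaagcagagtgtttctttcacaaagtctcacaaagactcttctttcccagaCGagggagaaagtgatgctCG
Traj55 (chr14:54161586-54161885): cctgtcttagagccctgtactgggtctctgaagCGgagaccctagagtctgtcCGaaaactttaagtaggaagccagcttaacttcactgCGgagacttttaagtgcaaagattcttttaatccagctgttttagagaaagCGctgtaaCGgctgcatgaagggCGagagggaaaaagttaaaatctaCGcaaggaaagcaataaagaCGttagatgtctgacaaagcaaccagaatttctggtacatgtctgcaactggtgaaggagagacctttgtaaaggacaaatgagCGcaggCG
The 9 CpGs beside Traj7 were each at 0% to 20.8% in the T cell tables and at 75.0% to 100% in the B cell tables. A wide gap follows from the choice of this segment. Together they stood at 8.98% and 11.1% in female and male T cells and at 95.0% and 94.9% in B cells. The 10 CpGs beside Traj55 ranged from 42.9% to 100% in T cells and from 90.9% to 100% in B cells, on 6 to 16 reads per CpG in the T cell tables. Together they stood at 77.2% and 78.9% in T cells and at 95.6% and 97.8% in B cells.

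Pooled over CpGs, the levels of the J bodies and their flanks were close in B cells, and in T cells the bodies were lower. The CpGs of bodies and flanks were not matched by place from Trac, with which the T cell level changed. Over all Traj segments, the 41 CpGs in bodies stood at 91.7% and 89.4% in B cells of females and males and at 24.3% and 24.0% in T cells. The 286 CpGs in the 500 bases before a segment stood at 92.8% and 93.2% in B cells and at 33.6% and 31.8% in T cells, and the 304 in the 500 bases after at 90.8% and 91.4% and at 33.6% and 32.96%. Over bodies alone the median T minus B difference of Traj was -41.1 points. The flanks of neighbours share CpGs.

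**Figure D3:**
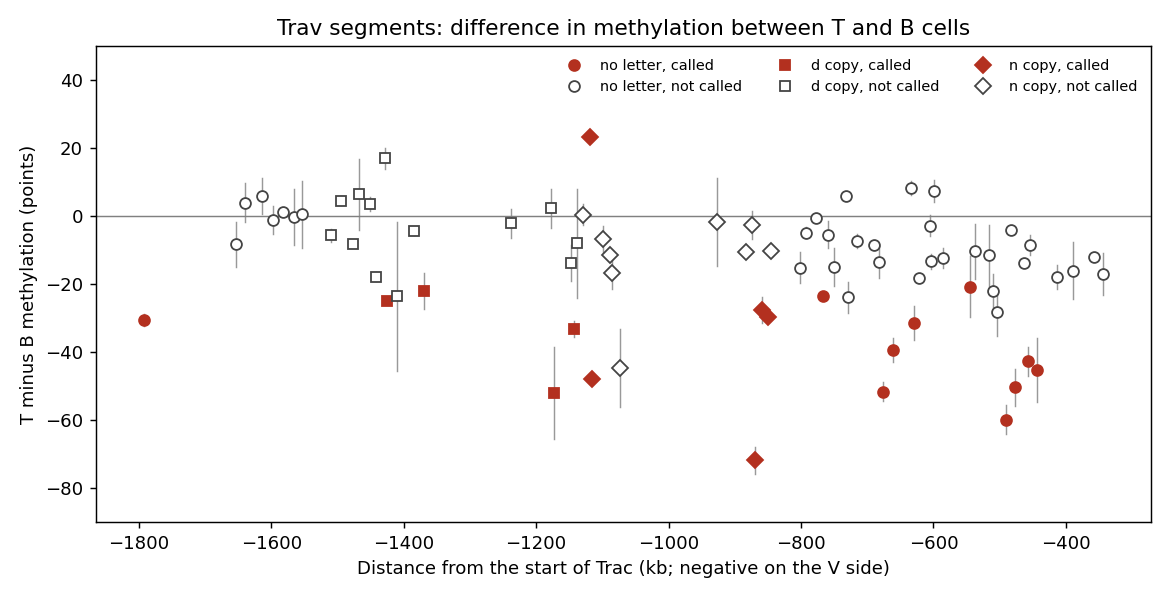
T minus B methylation in percentage points (y axis) of the 75 Trav segments with 3 or more CpGs in all 4 tables, against distance from the start of Trac in kb (x axis). Symbols are means over the sexes, vertical lines join the female and male differences, and filled symbols were called. Called segments are spread over the locus rather than gathered at 1 end.

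The V segments differed among themselves. Pooled over the CpGs of each stretch of the locus, the T minus B difference was -6.41 points in females and -5.52 in males for the 8 far V segments, -9.84 and -8.94 for the d copies and -10.1 and -10.1 for the n copies. It was -18.0 and -17.8 for Trav7-2 to Trav15-3 and -22.9 and -17.2 for the 9 segments nearest to the J region, of which 5 had 3 or more CpGs in all 4 tables. The median level over the 75 tested segments was 72.6% (B) and 61.4% (T) in females and 76.1% and 63.6% in males. Of these, 53 were lower in T cells in both sexes, 9 higher in both, and 13 went opposite ways, a split not counted over all genes. Of 63 functional segments 17 were called lower, and of 12 pseudogenes 1.

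Trav1, the first of the locus, stood apart from its neighbours. It had 89.3% (B) and 56.9% (T) in females and 90.0% and 61.2% in males, a difference of -30.6 points (adjusted p = 0.000264), while its depth was not called different. The next segment, Trav2, had 60.4%, 45.6%, 58.5% and 56.7% in the same order and was not called (adjusted p = 0.275). Of the 8 far V segments only Trav1 was called.

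Called segments recurred within families, which share sequence and are not independent. The 18 segments lower in T cells came from 8 of the 20 families with a tested segment. All 3 Trav16 segments and all 3 tested Trav14 segments were among them, as were 4 of 8 Trav13 and 3 of 11 Trav6 segments, while 0 of 10 Trav7, 0 of 5 Trav4 and 0 of 5 Trav8 segments were called. Differences between families were not tested. Trav7n-5, on 3 CpGs and 18 to 28 reads, had 72.2% (B) and 16.0% (T) in females and 76.2% and 42.9% in males and missed the call (adjusted p = 0.0906), but was called by mean CpG levels (0.000849) and among genes of 5 kb or less (0.0213). Trav families are groups of V genes of like sequence. Trav16d-dv11 had 70.8% (B) and 32.3% (T) in females and 80.3% and 14.8% in males. Trav16n had 75.9%, 0%, 67.7% and 0% on 3 CpGs and 26 to 36 reads, and Trav16 had 91.2%, 35.5%, 76.2% and 31.2%. The tables of T and B cells did not overlap in these 3 copies, which largely follows from their calls. The copies cannot be told apart with certainty.

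Among segments with more reads, Trav13-1 (chr14:53545014-53545525) fell from 70.0% to 21.2% in females and from 68.6% to 14.2% in males, a difference of -51.7 points (adjusted p = 8.46e-05). Trav15-1-dv6-1, also a V segment of delta chains by its name, had 54.6% (B) and 18.6% (T) in females and 57.7% and 14.8% in males (adjusted p = 0.000998). Both had been called lower, so the gap between their T and B tables largely follows from the call. Trav13d-1, whose depth ratio was uncertain, had 16.7%, 0%, 27.3% and 0% on 3 CpGs, was the weakest of the calls at an adjusted p of 0.0463, and was not called without female T (0.203), male T (0.180) or male B cells (0.0520), or with the spread estimated from all genes (0.0757).

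Trav9n-1, a pseudogene in the repeated stretch, was the 1 segment called higher in T cells. It had 43.8% (B) and 66.2% (T) in females and 43.6% and 67.7% in males, on 19 CpGs and 269 to 322 reads (adjusted p = 0.00161). Trav6n-5, which starts about 3 kb farther on, went the other way, with 80.0%, 30.5%, 93.5% and 47.5% (adjusted p = 0.00310). It was not called when the female T cells were left out (adjusted p = 0.0507).

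The level differed with the part of the V segment. In the 500 bases before a Trav segment, where V promoters lie, 166 CpGs stood at 46.5% and 46.2% in B cells of females and males and at 40.2% and 41.0% in T cells. In the bodies, 379 CpGs stood at 76.5% and 78.4% in B cells and at 62.2% and 63.4% in T cells. The 500 bases after stood at 80.1% and 80.4% in B cells and at 64.4% and 67.4% in T cells. Over all Trav segments the flank before was thus the least methylated part in every table, and the T minus B difference there was -6.3 and -5.3 points against -14.2 and -15.0 points in the bodies. In the 18 segments called lower, which were chosen on these values, the order in T cells was the other way, with 47.4% and 42.5% in the flank before and 40.9% and 39.8% in the bodies.

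Calls in depth and in methylation were set side by side where both could be tested. Of the 29 Trav segments called in depth, 22 could be tested for methylation and 5 were called lower (Trav9-2, Trav9-4, Trav16, Trav14-3 and Trav3-4), against 13 of 53 tested Trav segments not called in depth. Of the 14 Traj segments called in depth, 13 could be tested and 4 were called lower (Traj50, Traj48, Traj39 and Traj38), against 45 of 46 not called in depth. The difference between these shares was not tested. Where depth is low, the levels of T cells rest on fewer reads. Trav3-4 kept a T over B depth of 0.213 and 0.275 and had 87.1% (B) and 51.2% (T) in females and 86.6% and 31.8% in males, on 41 and 44 reads in T cells.

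**Figure D4:**
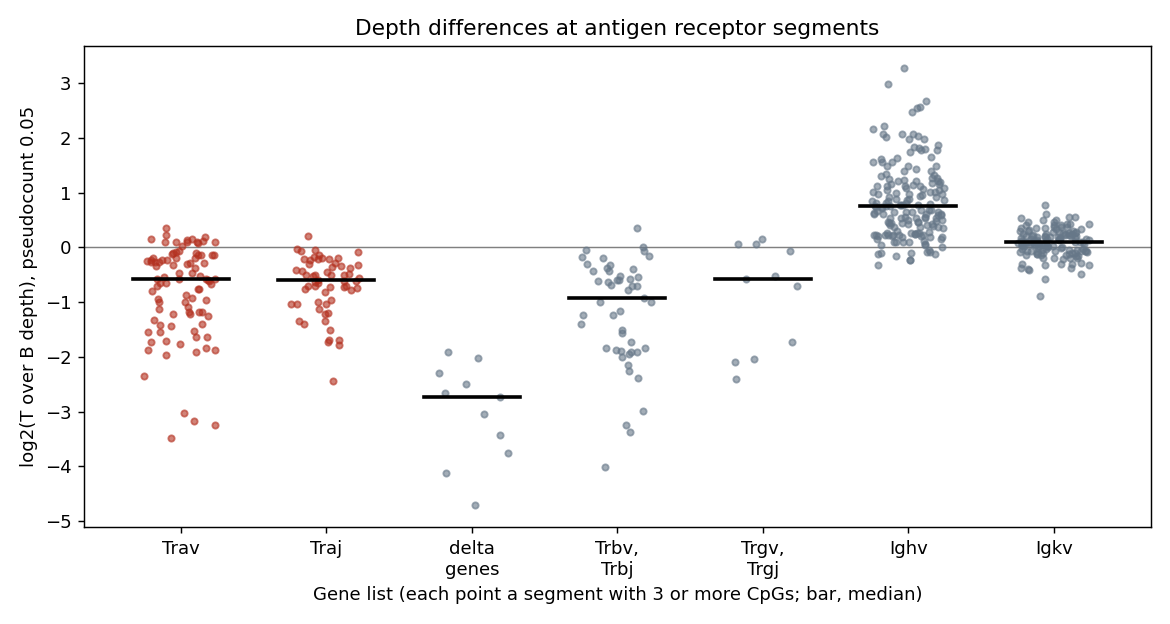
The log2 of T over B read depth (y axis, constant of 0.05 added to each depth) at segments of antigen receptor loci with 3 or more CpGs. Each point is a segment and each bar the median of its list. Trav and Traj have medians of -0.58 and -0.60, the delta genes lie lowest, and Ighv segments lie mostly above 0.

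The other receptor loci are given for comparison, with no test between lists, in the plot of receptor segments. Of 49 Trbv and Trbj segments of the T cell receptor beta chain, 22 were called lower in depth in T cells (median log2 -0.92), and of 11 gamma segments 3 were (median -0.58). Of 172 Ighv segments, the V segments of the antibody heavy chain, 0 were called lower and 37 higher in T cells (median 0.75), against 0.232% of all autosomal genes called higher. None of 137 Igkv or 3 Iglv segments was called by limma. At an unadjusted p under 0.05 stood 6 and 0 of them, against 3984 of 50335 autosomal genes. In methylation, 21 of 41 beta and 3 of 8 gamma segments were called lower in T cells and 0 higher. Of 134 Ighv segments 3 were called lower and 6 higher, of 128 Igkv segments 0 lower and 20 higher, and of 3 Iglv segments 0 lower and 1 higher.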

How the data were processed

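Whole-genome bisulfite sequencing had been applied to 8 samples of 4 groups, and 4 tables were deposited, 1 per group. The submitters' processing notes name Trim Galore, FastQC, Bismark 0.13.1 and mm10. Per CpG, with strands merged, the authors deposited a fraction, the share of reads that were methylated, and the deposited coverage is a count of reads, with a minimum of 5 reads. Duplicate removal and conversion rates are not given in the sources used here. Whether a table merges both samples of a group is not stated. With 1 residual degree of freedom, the spread behind each p-value is drawn toward that of other genes, in methylation never below counting noise. The p-values do not measure the spread between mice, and 4 tables give an exact two-sided permutation p of 0.333 at the least.

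Methylated reads were recovered as fraction times coverage, rounded, and summed per gene of GENCODE M21 (body with 500 bp to each side; 3 or more CpGs). Methylation was fitted by a quasi-binomial model on cell type and sex (1 residual degree of freedom), the dispersion being squeezed across 49551 genes with limma 3.58.1 in R 4.3.3 and kept at 1 or more. Depth was fitted by limma on log2(normalised depth + 0.05) over 50335 genes. P-values were adjusted by Benjamini-Hochberg over all genes tested. On simulated data, 198 of 200 changes of 30 points in methylation (0 false calls) and 178 of 200 changes of 2-fold in depth (16 false calls) were recovered. Noise was drawn from the fitted models with no sex effect, and simulated depth had no unlisted CpGs. These counts may thus not hold for segments with unlisted CpGs.

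Segments were named by a rule of place (nearest, farthest, quartiles), extreme depth ratio, extreme called methylation difference and most CpGs. Other segments named in the text (among them Trav16, Trav14-3, Trav15-1-dv6-1, Trav3-4, Trav9d-3, Traj18, Traj41, Traj37, Traj50 and Traj55) were chosen after their values were seen. The members and lists were chosen with earlier results of these data known. Alternatives changed the coverage minimum, the treatment of unlisted CpGs, the scaling, the constant, the region, the model terms and the tables used. Python 3.11.15 was used for counting and matplotlib 3.10.9 for plots.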

Additional observations from a re-analysis of the deposited data

Results flagged for a closer look

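The values here are those for which female and male tables gave T minus B differences of opposite sign among the named segments. None of these differences between the sexes was tested, since each group had 1 table. In depth (female minus male difference of log2 T over B), Trav2 differed by 0.49 (0.01 in females and -0.48 in males), Trav3-1 by -0.33 (-0.05 and 0.27), Trav13d-1 by -1.76 (-0.52 and 1.24, on 7 CpGs) and Trav9n-1 by -0.50 (-0.49 and 0.01). Trav6n-5 differed by -0.66 (-0.18 and 0.49) and Trav3n-3 by 4.81 (2.58 and -2.22, on 4 CpGs of which none was listed in female B or male T cells). Near Trac, Traj9 differed by -0.46 (-0.45 and 0.01), Traj8 by -0.40 (-0.29 and 0.11) and Traj1 by -0.65 (-0.64 and 0.01). In methylation, Trav3-1 differed by 11.4 points (9.66 in females and -1.74 in males). None of these segments was called in depth.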

How the results depend on the processing

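Single samples could not be paired because the groups share no replicate numbers and each group has 1 table. The sex term of the models sets T against B tables within each sex. Of members tested, 68 were called in methylation (67 lower) and 43 in depth, and without the sex term 69 and 48. With a coverage minimum of 10 reads, 44 of 73 testable members were called in methylation, and with gene bodies alone 23 of 63 were called in methylation and 19 of 81 in depth, fewer segments being testable in each case. Leaving out 1 table gave 64 to 70 calls in methylation and 32 to 64 in depth, of which 2 were higher without female B (64 calls, 62 lower) and 2 without male B cells (63 calls, 61 lower). The median methylation difference of Trav was -4.43 points at a minimum of 10 reads and -12.8 without d and n copies, and -13.2 to -10.7 with 1 table left out. That of Traj was -70.2 at a minimum of 10 reads, -55.3 by mean CpG levels, -41.1 for bodies alone and -58.7 in females alone, and -59.0 to -55.9 with 1 table left out. The 60 Traj bodies held only 45 CpGs. Traj values for bodies alone, here and for depth below, cover only segments with 3 or more CpGs in the body, a number not counted. The median log2 depth of Trav was -1.11 without d and n copies and -0.67 to -0.50 with 1 table left out. That of Traj was -0.51 with a constant of 0.2, -1.16 for bodies alone and -0.63 to -0.57 with 1 table left out. A Poisson likelihood for unlisted CpGs, chosen after seeing the data, gave -0.59 and -0.62. When 1 table is left out, 1 cell type has 1 table and sex is not in the model, so the spread of a gene rests on the other cell type. Among the named genes, whose sign was followed under each setting, depth changed sign only in those not called over all 4 tables. Trav9n-3 had a log2 value of -1.42 without male B and 1.60 without female B cells, and none of its 4 CpGs was listed in the male tables. With 1 table left out, the log2 value ranged from -0.31 to 0.042 at Gm43250, -0.0030 to 0.22 at Trav3-1, -0.32 to 1.04 at Trav13d-1, -0.069 to 0.38 at Trav6n-5, -1.51 to 1.69 at Trav9n-3, -1.11 to 1.47 at Trav3n-3, -0.20 to 0.021 at Traj8 and -0.051 to 0.0019 at Dad1. With unlisted CpGs at 4 reads it was -0.097 at Trav3n-3, and over CpGs listed in all 4 tables -0.030 at Trav13d-1. The cause was not tested. At 14 to 17 reads per CpG, segments under 3 CpGs gave no value.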
